A study of Homo sapiens with 12 samples.

Results

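The genes of the proteasome and its regulators were followed in U937 cells, a human pro-monocytic line, exposed to antibodies against the inhibitory receptor LILRB3. Members were taken by symbol: every gene whose name begins with PSMA to PSMG and a number, together with POMP, ADRM1 and SEM1, while pseudogenes and antisense genes were left out. This gave 53 genes of the 27827 symbols in the deposited tables. The 53 comprise 7 alpha and 4 non-catalytic beta subunits of the 20S core, its 3 constitutive catalytic subunits, the 3 immunoproteasome subunits PSMB8, PSMB9 and PSMB10, and the tissue-restricted PSMA8 and PSMB11. The 19S cap accounts for 6 ATPases, 13 other subunits and 3 chaperones of its base. The remaining members are 4 PSME genes, the inhibitor gene PSMF1, 5 genes of 20S assembly, and PSMC3IP and PSME3IP1. Those last genes match the naming pattern but encode partners of PSMC3 and PSME3, not proteasome subunits.

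The 26S proteasome degrades proteins tagged with ubiquitin. Its 20S core is a barrel of stacked alpha and beta rings whose catalytic sites lie on the inner face of the beta rings, and its 19S cap recognises, unfolds and feeds in the substrate. In cells that receive interferon gamma, PSMB8, PSMB9 and PSMB10 can replace the constitutive catalytic subunits PSMB5, PSMB6 and PSMB7 in newly built cores. This immunoproteasome, together with the PA28 activator made of PSME1 and PSME2, is known for its part in producing peptides for MHC class I in monocytes and other immune cells. When proteasome activity is low, the factor encoded by NFE2L1 can raise transcription of the subunit genes together.

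RNA was sequenced from 12 libraries in 4 groups of 3. All 4 groups had received 50 ng/mL interferon gamma first, and then for 72 hours either an LILRB3 antagonist antibody, an LILRB3 agonist antibody (each at 5 mg/mL as labelled) or nonspecific IgG, with a separate IgG group for each antibody. No group without interferon gamma was included, so its own effect on these genes was not measured. U937 is a single established line, and the labels do not tell whether a group's 3 libraries are separate cultures. The p-values therefore refer to the spread between libraries, which may be technical. The antagonist table holds all 53 members, and the agonist table, a list of 904 genes, holds only PSMD11 and PSMD14. Library totals in the antagonist table ranged from 17053190 to 18833088 counts, entries without a gene symbol included. In bulk RNA, fewer cells of a type and less RNA per cell cannot be told apart.

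The promoters below are shown because PSMB8, PSMB10, PSME1 and PSME2 carry a match to the interferon-stimulated response element (ISRE) close to the start. PSMB3, the constitutive core gene with the lowest fold change, is shown beside them and has no such match. The sequences are RefSeq promoters of build GRCh38.p14, from 110 bases before to 30 bases after the annotated start, written 5′ to 3′ on the strand of the gene. For PSMB8 (chr6:32844018-32844157, minus strand), PSMB10 (chr16:67936821-67936960, minus strand), PSME1 (chr14:24136084-24136223, plus strand) and PSME2 (chr14:24146581-24146720, minus strand) the capitals mark the ISRE core, GAAA repeated after a gap of 2 bases, on either strand. For PSMB3 (chr17:38752631-38752770, plus strand) the capitals mark the antioxidant response element core TGACNNNGC, which NFE2L1 can bind, and 2 CCAAT boxes. Matches to other motifs in the first genes are left in lower case. PSME1 also holds TGACNNNGC within its stretch, at -86 from the start, and PSME2 holds it outside its stretch, at -175. PSMB8 holds TTCNNNGAA, a STAT-type motif, at -65.
PSMB8: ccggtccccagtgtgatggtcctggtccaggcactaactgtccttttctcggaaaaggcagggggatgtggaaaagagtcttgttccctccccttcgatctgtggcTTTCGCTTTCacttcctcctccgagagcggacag
PSMB10: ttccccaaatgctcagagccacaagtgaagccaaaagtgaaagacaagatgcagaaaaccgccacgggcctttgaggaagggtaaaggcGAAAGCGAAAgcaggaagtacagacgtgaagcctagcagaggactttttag
PSME1: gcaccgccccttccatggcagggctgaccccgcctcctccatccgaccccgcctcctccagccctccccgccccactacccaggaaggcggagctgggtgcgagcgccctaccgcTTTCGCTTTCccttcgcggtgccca
PSME2: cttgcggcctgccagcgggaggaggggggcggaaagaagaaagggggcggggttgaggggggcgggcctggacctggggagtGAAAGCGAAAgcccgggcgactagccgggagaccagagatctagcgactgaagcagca
PSMB3: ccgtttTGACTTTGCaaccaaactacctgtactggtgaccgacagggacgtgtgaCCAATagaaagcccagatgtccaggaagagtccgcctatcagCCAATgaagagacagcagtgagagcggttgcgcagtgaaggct

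RefSeq windows of 300 bases (250 before to 50 after the start) were matched for 47 of the 53 members, and each motif was searched on both strands. Some genes have several windows, and a gene was counted if any of its windows held the motif. The shares below therefore depend on the number of windows per gene. PSMB8 has 2 windows: the one printed above in part holds the ISRE core, and the other held no match to any motif searched. The ISRE core occurred in 7 of the 47 (14.9%) against 4.38% of all 27305 genes with a window. The 7 were PSMB8, PSMB10, PSME1, PSME2, PSMA4, PSMB4 and PSMG4. The window of PSMB9, the remaining immunoproteasome gene, held TGACNNNGC and a CCAAT box but not these letters, and its sequence is not shown. The response element core TGACNNNGC was found for 17 members (36.2%) against 16.1% of all genes, the CCAAT box for 24 (51.1%) against 39.7%, and the STAT-type motif TTCNNNGAA for 8 (17.0%) against 9.38%. In no member did matches of different motifs share bases. These are matches of letters in a window, and binding was not measured.

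Proteasome transcripts were lower with the antagonist antibody than with IgG. Of the 51 members with enough counts to test, 38 fell, none rose and 13 were not called (edgeR quasi-likelihood test, adjusted p under 0.05). DESeq2 called 33 lower and 0 higher, and at an unadjusted edgeR p under 0.05 there were 41 lower and 0 higher. Over all 13778 tested genes 36.1% were called, 20.5% lower and 15.6% higher. The median log2 fold change of the 51 members was -0.33, against -0.01 for all tested genes, and 49 of the 51 were below 0. Antagonist libraries lay wholly below IgG libraries for 40 members and wholly above for 0, where 27.1% of all tested genes lay wholly below and 21.9% wholly above. Together the members held 0.476%, 0.446% and 0.433% of all counts in the IgG libraries and 0.387%, 0.397% and 0.385% in the antagonist libraries. The 2 members without a test were PSMA8, a testis-type alpha subunit with 4, 6 and 6 counts in IgG and 0, 2 and 6 with the antagonist, and the thymic PSMB11, at 0 in all 6 libraries. A count of 0 allows up to 0.176 CPM (counts scaled to library size) in the smallest library.

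Some measures of the libraries moved with this result. The first IgG library stood apart. In chi-square tests of counts over genes, divided by their degrees of freedom, it gave 11.1 and 19.98 with its 2 replicates, which gave 4.56 with each other. It was the highest IgG library for 38 of the 51 members. Without it 34 members fell and their median was -0.27. Without the first antagonist library 31 fell. The share of mitochondrially encoded transcripts was 3.23% to 3.41% in IgG and 2.54% to 2.80% with the antagonist, and ribosomal protein genes took 6.46% to 7.63% and 5.29% to 5.55%; the part of either in the proteasome result was not tested. Members have short transcripts, with a median longest transcript of 1581 bases against 3185 for all tested genes. Across 13365 genes with a length, log2 fold change correlated with length (Spearman 0.24) and with GC content (0.28). With both trends removed 27 members fell, with a median of -0.22 against -0.04 for all tested genes. In that setting 16.2% of all tested genes fell. Scaled by library totals and not by TMM, 32 members fell, while the share of called genes that were higher went from 43.1% to 65.4%.

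**Figure D1:**
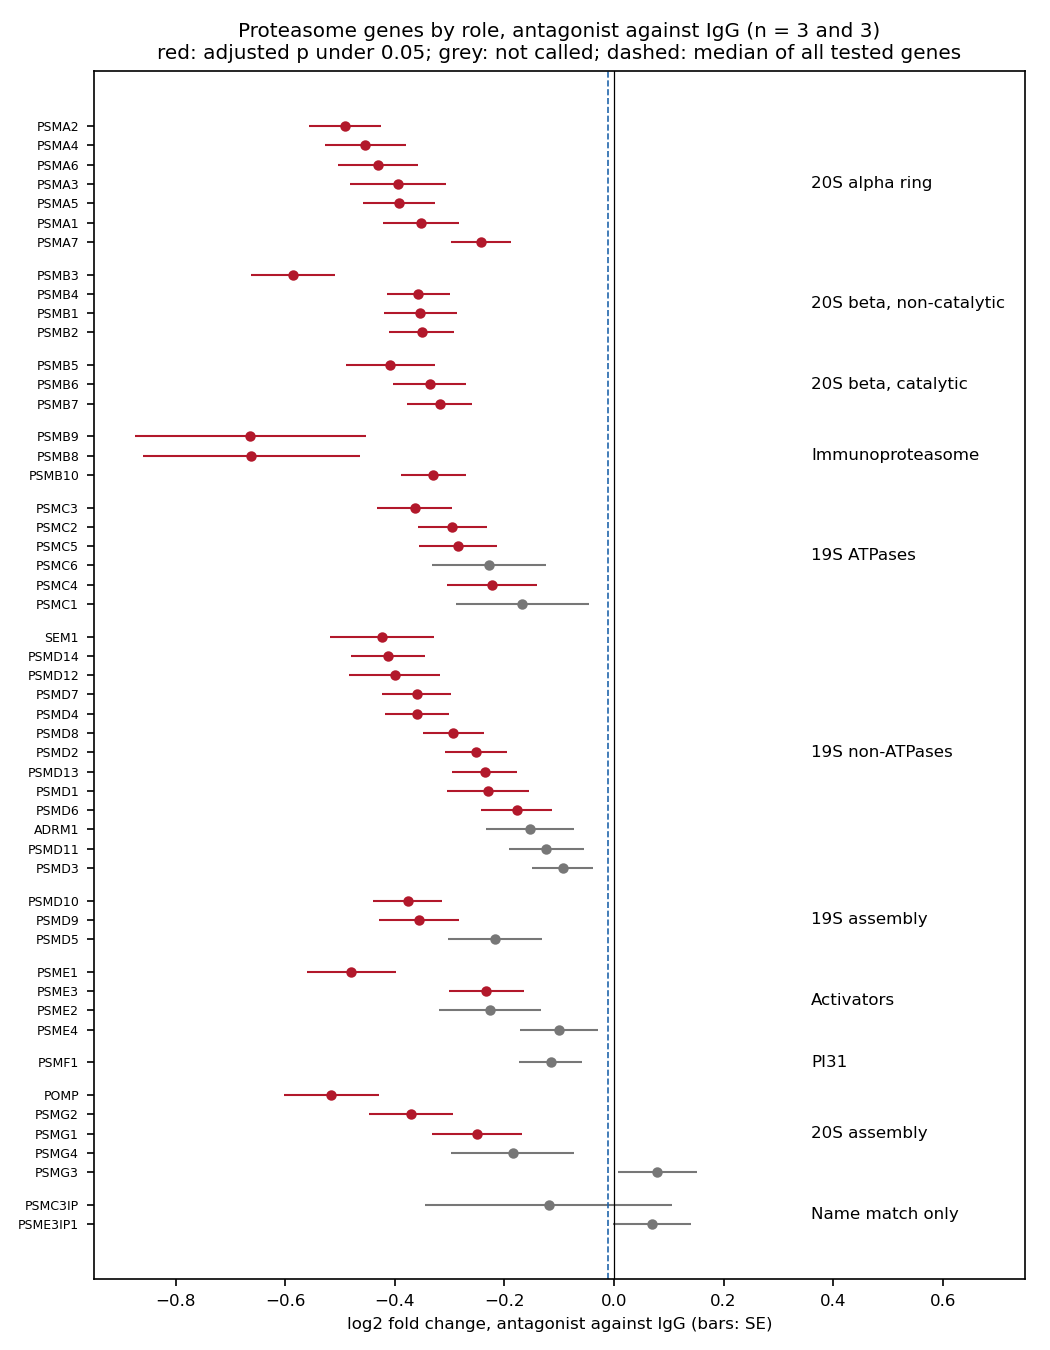
Log2 fold change of antagonist over IgG for each tested proteasome gene, with bars of 1 standard error, grouped by role. Red points passed the adjusted p threshold of 0.05 and grey points did not. All 14 constitutive 20S genes lie between -0.59 and -0.24, and the 19S genes lie between -0.42 and -0.09.

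The 14 constitutive 20S genes all fell, with a median log2 fold change of -0.37. They held 0.192%, 0.172% and 0.169% of counts in IgG and 0.145%, 0.149% and 0.142% with the antagonist, so the groups did not overlap. In the alpha rings, which gate entry to the barrel, all 7 genes fell with a median of -0.39. CPM values below are scaled by TMM and follow the order of libraries in the table, which pairs no library with another.

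PSMA2, an alpha ring subunit, had 129, 116 and 114 CPM in IgG and 87.4, 86.4 and 82.0 CPM with the antagonist, a log2 fold change of -0.49 ± 0.07 (SE; edgeR adjusted p = 0.000307). PSMA4, a neighbour in the same ring, had 252, 211 and 225 CPM against 169, 177 and 157 CPM (-0.45 ± 0.07, edgeR adjusted p = 0.000831). PSMA6, also of this ring, had 136, 114 and 117 CPM against 88.8, 95.6 and 88.1 CPM (-0.43 ± 0.07, edgeR adjusted p = 0.000979). In each of these genes every antagonist library lay below every IgG library, and the first IgG library was the highest. PSMA2 has 3 named pseudogenes and PSMA6 has 4, which can take reads from them. PSMA7, the alpha gene with the smallest change, had 315, 312 and 302 CPM against 266, 259 and 261 CPM (-0.24 ± 0.05, edgeR adjusted p = 0.00472). Its groups were also apart, but with the length and GC trends removed its log2 fold change was -0.13 and it was no longer called. PSMA1, PSMA3 and PSMA5 fell with log2 fold changes of -0.35, -0.39 and -0.39, and PSMA3 was no longer called with those trends removed (-0.16, edgeR adjusted p = 0.194).

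The 4 non-catalytic beta genes fell with a median of -0.36. PSMB3 (chromosome 17, 38752736 to 38764231) had 79.9, 72.1 and 64.9 CPM in IgG and 48.0, 47.8 and 48.8 CPM with the antagonist (-0.59 ± 0.08, edgeR adjusted p = 0.000299). Its antagonist libraries were nearly level, its IgG libraries spread more widely, and the groups were apart. PSMB4 had 257, 238 and 242 CPM against 194, 195 and 186 CPM (-0.36 ± 0.06, edgeR adjusted p = 0.000784). PSMB1 had 138, 124 and 123 CPM against 95.6, 101 and 105 CPM (-0.35 ± 0.07, edgeR adjusted p = 0.00171), and PSMB2 had 146, 134 and 141 CPM against 110.2, 114 and 106 CPM (-0.35 ± 0.06, edgeR adjusted p = 0.00103). None of the 4 had overlapping groups. With the length and GC trends removed PSMB1 was not called (-0.19, edgeR adjusted p = 0.0521).

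The constitutive catalytic subunits moved by similar amounts. PSMB5, which carries the chymotrypsin-like site, had 73.9, 69.9 and 64.3 CPM in IgG and 55.5, 46.4 and 55.0 CPM with the antagonist (-0.41 ± 0.08, edgeR adjusted p = 0.00244). PSMB6, with the caspase-like site, had 94.0, 83.9 and 89.6 CPM against 66.4, 74.2 and 71.2 CPM (-0.34 ± 0.07, edgeR adjusted p = 0.00243). PSMB7, with the trypsin-like site, had 90.4, 87.7 and 85.7 CPM against 68.1, 72.0 and 71.5 CPM (-0.32 ± 0.06, edgeR adjusted p = 0.0016). For all 3 the groups were apart.

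**Figure D2:**
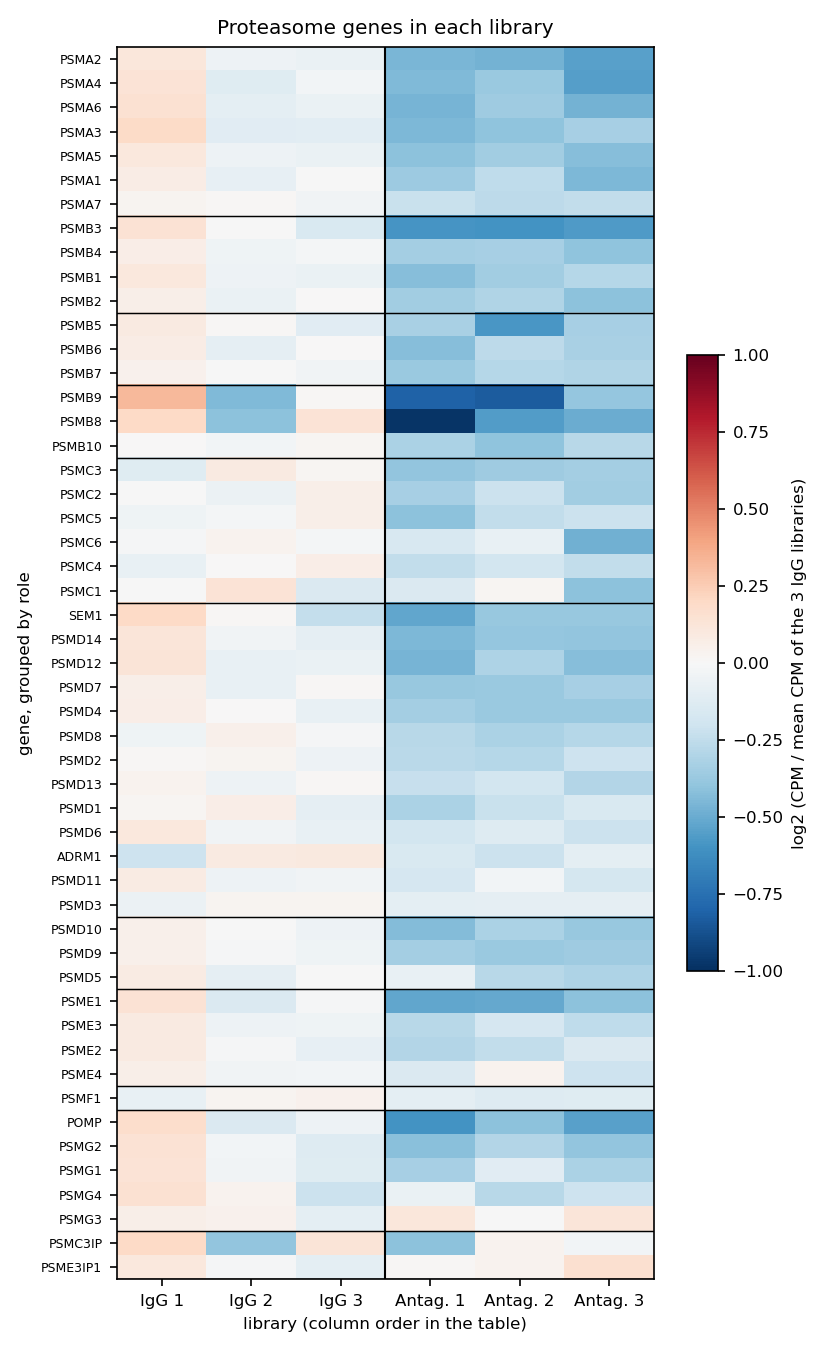
Level of each tested proteasome gene in each of the 6 libraries of the antagonist comparison, as log2 of its CPM over the mean of the IgG libraries, with genes grouped by role. The median over the 51 genes was 1.05, 0.978 and 0.974 of the IgG mean in the IgG libraries and 0.791, 0.819 and 0.796 in the antagonist libraries.

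All 3 immunoproteasome genes fell, but they lay at very different levels. PSMB10, the counterpart of PSMB7 (chromosome 16, 67934502 to 67937087), had 91.2, 89.4 and 92.1 CPM in IgG and 73.0, 68.9 and 75.0 CPM with the antagonist (-0.33 ± 0.06, edgeR adjusted p = 0.00141). Its spread within each group was small and the groups were apart. PSMB8, the counterpart of PSMB5, lies on chromosome 6 from 32840717 to 32844703 and was thinly covered, with 118, 70 and 99 counts in IgG and 49, 68 and 71 with the antagonist. Scaled, these were 6.35, 4.15 and 6.06 CPM against 2.80, 3.75 and 3.91 CPM (-0.66 ± 0.20, edgeR adjusted p = 0.0206). The lowest IgG library was only just above the highest antagonist library.

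PSMB9, the counterpart of PSMB6, lies beside PSMB8 (chromosome 6, 32844136 to 32859585) on the opposite strand. It had 126, 67 and 89 counts in IgG and 54, 55 and 75 with the antagonist. Scaled, these were 6.78, 3.97 and 5.45 CPM against 3.09, 3.03 and 4.13 CPM (-0.66 ± 0.21, edgeR adjusted p = 0.0274). The second IgG library lay below the third antagonist library, so the groups overlapped. Exons of PSMB8 and PSMB9 overlap on opposite strands, and whether the counting used strand is not given in the sources used here, so reads in that overlap cannot be assigned between them. The PSMB8 call was lost without the first IgG library (-0.52, edgeR adjusted p = 0.0532), without the third (-0.59, edgeR adjusted p = 0.0506) and without the first antagonist library (-0.53, edgeR adjusted p = 0.0994). For PSMB9 it was lost without the first IgG library (-0.43, edgeR adjusted p = 0.109), without the first or second antagonist library (-0.60 and -0.59), and with the length and GC trends removed (-0.55). All of these values stayed below 0. With the filter of at least 5 CPM in 3 libraries neither gene was tested, and 1 of the 3 immunoproteasome genes fell.

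Per kilobase of the longest annotated transcript, the mean IgG level was 4.09 CPM for PSMB8, 6.82 CPM for PSMB9 and 74.6 CPM for PSMB10. The constitutive counterparts had levels of 53.6 CPM per kilobase for PSMB5, 102 for PSMB6 and 89.7 for PSMB7. Thus PSMB8 and PSMB9 lay below every constitutive core gene, whose levels ran from 21.6 for PSMA5 to 311 for PSMA7 with a median of 85.1 CPM per kilobase, while PSMB10 lay close to its counterpart. With the median transcript length in place of the longest, PSMB8, PSMB9 and PSMB10 had 4.91, 6.90 and 103.5 CPM per kilobase. The corresponding 19S levels ran from 3.43 for PSMC1 to 185 for PSMD8, with a median of 41.4 CPM per kilobase of the longest transcript. The lowest 19S gene depended on the length used. With the median length the 19S levels ran from 10.3 for PSMD12 to 220 for PSMD8, with a median of 63.2.

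Whether the immunoproteasome genes fell by more than their counterparts was tested as a ratio of counts within each library. The PSMB8 to PSMB5 ratio was 0.0859, 0.0594 and 0.0943 in IgG and 0.0505, 0.0809 and 0.0711 with the antagonist, a log2 difference of -0.24 (two-sided exact permutation p = 0.5, adjusted 0.75). The PSMB9 to PSMB6 ratio was 0.0721, 0.0474 and 0.0608 against 0.0465, 0.0409 and 0.0580, a difference of -0.30 (exact permutation p = 0.2, adjusted 0.6). The PSMB10 to PSMB7 ratio was 1.01, 1.02 and 1.08 against 1.07, 0.957 and 1.05, a difference of -0.01 (exact permutation p = 0.8, adjusted 0.8). With a library left out, the first difference ranged from -0.44 to -0.05 (the latter without the first antagonist library) and the second from -0.47 (without the second IgG library) to -0.16 (without the first). All 3 ratios overlapped between the groups, and p-values were adjusted over these 3 tests. With 3 libraries against 3 the smallest possible p is 0.1, so these tests could not have passed 0.05.

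**Figure D3:**
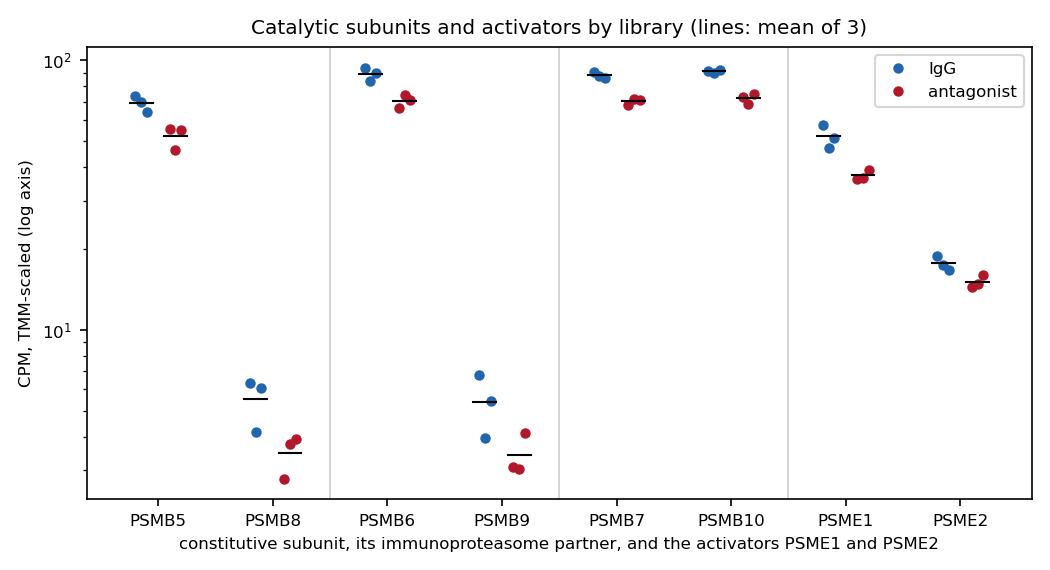
TMM-scaled CPM of each immunoproteasome gene beside its constitutive counterpart, and of PSME1 and PSME2, on a log axis, with 1 point per library and a line at the mean of each group of 3. PSMB8 and PSMB9 sit between 2.80 and 6.78 CPM, while PSMB10 sits between 68.9 and 92.1 CPM, near PSMB7.

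In the 19S cap 14 of 19 genes fell and 5 were not called, with a median of -0.25 and a range from -0.42 to -0.09. With the length and GC trends removed 9 of the 19 fell, where 16.2% of all tested genes fell. The 19 genes held 0.172%, 0.170% and 0.162% of counts in IgG and 0.146%, 0.150% and 0.147% with the antagonist. Of the 6 ATPases, which unfold the substrate, 4 fell and the median was -0.26. PSMC3 had 61.1, 70.7 and 67.5 CPM in IgG and 50.5, 51.8 and 52.4 CPM with the antagonist (-0.36 ± 0.07, edgeR adjusted p = 0.00183). PSMC2 had 106, 102 and 111 CPM against 84.7, 91.8 and 83.6 CPM (-0.29 ± 0.06, edgeR adjusted p = 0.00332), and PSMC5 had 55.2, 55.9 and 59.3 CPM against 42.8, 48.0 and 49.0 CPM (-0.28 ± 0.07, edgeR adjusted p = 0.00838). The groups were apart for these 3 ATPases, with the first IgG library the lowest for PSMC3 and PSMC5. PSMC2 was not called with the length and GC trends removed (-0.15, edgeR adjusted p = 0.103), nor was PSMC5 without the first antagonist library (-0.23, edgeR adjusted p = 0.0558). PSMC1 had 15.2, 16.8 and 13.8 CPM against 13.8, 15.4 and 11.5 CPM (-0.17 ± 0.12, edgeR adjusted p = 0.305), and its groups overlapped. PSMC1 has 13 named pseudogenes, more than any other member, which can take reads from it. PSMC4 was at the threshold (-0.22, edgeR adjusted p = 0.0497) and was not called in 12 of 13 other settings, and PSMC6 was not called (-0.23, edgeR adjusted p = 0.104).

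Among the 13 non-ATPase subunits of the cap, 10 fell with a median of -0.25 over the 13. SEM1, the smallest lid protein, had 127, 111 and 93.5 CPM in IgG and 77.0, 85.0 and 84.9 CPM with the antagonist (-0.42 ± 0.10, edgeR adjusted p = 0.00546). PSMD14, the deubiquitinase that removes the ubiquitin chain as the substrate enters, had 101, 90.4 and 87.0 CPM against 67.9, 70.9 and 70.4 CPM (-0.41 ± 0.07, edgeR adjusted p = 0.000847). PSMD12, a lid scaffold subunit, had 38.3, 33.4 and 33.5 CPM against 25.4, 28.3 and 26.1 CPM (-0.40 ± 0.08, edgeR adjusted p = 0.00299). All antagonist libraries of these 3 lay below all IgG libraries, and SEM1 had the widest spread within IgG. With the length and GC trends removed SEM1 was not called (-0.25, edgeR adjusted p = 0.0705). PSMD3, another lid scaffold subunit, had 165, 175 and 175 CPM against 159.8, 161 and 161 CPM (-0.09 ± 0.06, edgeR adjusted p = 0.202). Its groups were also apart, by a gap small beside the spread in IgG.

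The ubiquitin receptors of the cap differed in their calls, although the difference between them was not tested. PSMD4 had a log2 fold change of -0.36 ± 0.06 (edgeR adjusted p = 0.000848), while ADRM1 had 96.4, 118 and 119.6 CPM in IgG and 100.5, 96.1 and 104 CPM with the antagonist (-0.15 ± 0.08, edgeR adjusted p = 0.152). ADRM1 was lowest in the first IgG library, which overlapped the antagonist group. PSMD1 and PSMD2, the large base scaffolds, fell with log2 fold changes of -0.23 and -0.25, and the call of PSMD1 was lost in 9 of 13 other settings, DESeq2 among them. PSMD6 had a fold change of -0.18 and an edgeR adjusted p of 0.0495, and was not called in 11 of 13 other settings. PSMD7 and PSMD8 fell by 0.36 and 0.29, and PSMD13 fell by 0.24, on the log2 scale. The PSMD13 call was lost in 2 of 13 other settings.

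Of the 3 chaperones that assemble the base of the cap, 2 fell. PSMD10 (gankyrin) had 74.6, 71.9 and 69.5 CPM in IgG and 53.2, 57.7 and 55.5 CPM with the antagonist (-0.38 ± 0.06, edgeR adjusted p = 0.00096). PSMD9 had 32.0, 30.7 and 29.9 CPM against 24.4, 23.9 and 24.1 CPM (-0.36 ± 0.07, edgeR adjusted p = 0.00294), and both genes had groups that were apart. PSMD5 had 33.3, 29.7 and 31.5 CPM against 29.9, 26.0 and 25.4 CPM (-0.22 ± 0.09, edgeR adjusted p = 0.064), with overlap of its groups at the second IgG and first antagonist libraries.

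The PSME genes encode activators that open the 20S gate without the 19S cap, and 2 of the 4 fell. PSME1, the PA28 alpha subunit (chromosome 14, 24136158 to 24138967), had 57.6, 47.2 and 51.7 CPM in IgG and 36.4, 36.7 and 39.2 CPM with the antagonist (-0.48 ± 0.08, edgeR adjusted p = 0.000971). Its partner PSME2 (chromosome 14, 24143362 to 24147570) had 18.8, 17.4 and 16.7 CPM against 14.4, 14.8 and 16.0 CPM (-0.23 ± 0.09, edgeR adjusted p = 0.0753). Both partners had groups that were apart, but PSME2 by a smaller gap, and the difference between the 2 genes was not tested. Both genes carry the ISRE core printed above, and both overlap exons of another gene on the other strand.

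PSME3, which encodes the nuclear PA28 gamma, had 59.5, 53.9 and 54.4 CPM against 46.1, 49.8 and 46.9 CPM (-0.23 ± 0.07, edgeR adjusted p = 0.0185). Its groups were apart, and its call was lost in 6 of 13 other settings. PSME4, which encodes PA200, had 85.5, 79.9 and 80.6 CPM against 74.2, 84.1 and 71.2 CPM (-0.10 ± 0.07, edgeR adjusted p = 0.294), and the second antagonist library lay within the IgG range. PSMF1, which encodes the PI31 regulator first described as an inhibitor of the core, had 293, 315 and 318 CPM against 289, 281 and 284 CPM (-0.12 ± 0.06, edgeR adjusted p = 0.135). The PSMF1 groups were apart by a narrow gap and it was not called.

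Of the 5 genes of 20S assembly 3 fell, where 20.5% of all tested genes fell. With the length and GC trends removed 1 of the 5 fell, PSMG2, where 16.2% of all tested genes fell. POMP, the maturation factor that brings beta subunits onto the alpha ring and is degraded in the finished core, had 77.6, 62.2 and 66.1 CPM in IgG and 45.3, 51.7 and 47.0 CPM with the antagonist (-0.52 ± 0.09, edgeR adjusted p = 0.00096). Its groups were apart, and with the length and GC trends removed its log2 fold change was -0.24 (edgeR adjusted p = 0.0554). The chaperone gene PSMG2 had 81.4, 72.3 and 67.4 CPM against 55.0, 60.1 and 56.0 CPM (-0.37 ± 0.08, edgeR adjusted p = 0.00289). Its partner PSMG1 had 76.7, 68.1 and 64.0 CPM against 55.4, 64.4 and 55.9 CPM (-0.25 ± 0.08, edgeR adjusted p = 0.0319), with an overlap of the third IgG and second antagonist libraries and a call lost in 9 of 13 other settings. The second chaperone pair was not called. PSMG3 had 43.5, 43.1 and 39.0 CPM against 45.3, 41.7 and 45.6 CPM (0.08 ± 0.07, edgeR adjusted p = 0.419), the member with the highest fold change, and PSMG4 had -0.19 ± 0.11 (edgeR adjusted p = 0.216).

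PSMC3IP and PSME3IP1, which match the naming pattern without being proteasome subunits, were not called. PSME3IP1 had 66.5, 61.3 and 57.8 CPM in IgG and 62.5, 63.4 and 69.0 CPM with the antagonist (0.07 ± 0.07, edgeR adjusted p = 0.47), with overlapping groups. PSMC3IP was low, between 1.94 and 2.96 CPM in all 6 libraries (-0.12 ± 0.23, edgeR adjusted p = 0.711).

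Promoter matches were set beside the calls as a description. Among the members with a RefSeq window, the core TGACNNNGC occurred in 12 of the 33 that fell and in 5 of the 12 that were not called. The CCAAT box occurred in 19 of the 33 and in 4 of the 12. Of the 10 constitutive core genes with a window, 7 had the CCAAT box. The core TGACNNNGC, the ISRE core and TTCNNNGAA each occurred in 2 of those 10. The ISRE core occurred in 5 of the 33 and in 2 of the 12. POMP, which had the lowest fold change of the assembly genes, had none of the 4 motifs in its window.

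Genes that control or work with the proteasome were read from lists of pathway genes. Of 7 genes that regulate transcription of the subunits, 3 rose and 2 fell, with a median of 0.12. Over all tested genes 15.6% rose and 20.5% fell. DDI2, the protease that releases the NFE2L1 factor, had 6.18, 6.23 and 6.06 CPM in IgG and 8.51, 9.49 and 11.1 CPM with the antagonist (0.66 ± 0.13, edgeR adjusted p = 0.00267). It shares its locus and strand with RSC1A1, so its reads are uncertain. MAFG, a small MAF partner of the factor, had 198, 232 and 229 CPM against 294, 280.3 and 303 CPM (0.41 ± 0.07, edgeR adjusted p = 0.000966), and MAFF, a second partner, rose by 0.34 on the log2 scale. Both DDI2 and MAFG were higher in every antagonist library than in any IgG library, against the direction of the subunit genes. NFE2L1 itself had 95.8, 105 and 109 CPM against 111, 108 and 106 CPM (0.07 ± 0.06, edgeR adjusted p = 0.396), with overlapping groups. NGLY1, the deglycosylase that processes the factor, fell by 0.20 on the log2 scale. With the length and GC trends removed only DDI2 of these 7 genes kept its call. The values were then 0.20 for MAFG (edgeR adjusted p = 0.0542), 0.25 for MAFF (edgeR adjusted p = 0.104), -0.07 for NGLY1 (edgeR adjusted p = 0.483) and -0.10 for NFE2L1. The NGLY1 call was also lost with DESeq2.

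Of 20 genes whose products bind the proteasome, 6 fell, with a median of -0.05. Lower calls thus made up 30% of this list, against 20.5% of all tested genes. TXNL1, a thioredoxin of the 19S cap, had a log2 fold change of -0.36 ± 0.08 (edgeR adjusted p = 0.00305), and the shuttle gene RAD23B had -0.34 ± 0.06 (edgeR adjusted p = 0.00096). UCHL5, the deubiquitinase held by ADRM1, had -0.32 ± 0.07 (edgeR adjusted p = 0.00484), and PITHD1 had -0.27 ± 0.07 (edgeR adjusted p = 0.00856). USP14, the other deubiquitinase of the cap, had -0.07 ± 0.07 (edgeR adjusted p = 0.448), and its sign reversed with library totals (0.01) and with the length and GC trends removed (0.03). With those trends removed UCHL5 (-0.19, edgeR adjusted p = 0.0758) and PITHD1 (-0.19, edgeR adjusted p = 0.0609) were not called, and PITHD1 was not called with library totals either. Both deubiquitinases bind the cap only reversibly, unlike PSMD14.

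Of 6 genes that encode ubiquitin or its activating enzymes 5 fell, with a median of -0.37, where 20.5% of all tested genes fell. UBB, a polyubiquitin gene, had 643, 592 and 587 CPM in IgG and 449, 463 and 458 CPM with the antagonist (-0.41 ± 0.06, edgeR adjusted p = 0.000425), and its groups were apart. The fusion gene RPS27A, which encodes ubiquitin joined to a ribosomal protein, fell by 0.49 on the log2 scale. With the length and GC trends removed it was not called (-0.30, edgeR adjusted p = 0.0573).

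Genes of the MHC class I route and of interferon gamma signalling gave calls in both directions. Of 17 class I genes 6 fell and 1 rose, with a median of -0.05. B2M, the light chain, had a log2 fold change of -0.35 (edgeR adjusted p = 0.00143), and TAPBP, the tapasin gene, rose with 0.28 ± 0.09 (edgeR adjusted p = 0.0238). TAP1, the peptide transporter gene that lies next to PSMB9, had 2.15, 2.08 and 2.02 CPM against 1.54, 1.88 and 1.60 CPM (-0.32 ± 0.22, edgeR adjusted p = 0.283). Of 11 interferon gamma genes 2 fell and 1 rose, with a median of -0.10. Lower calls made up 35.3% of the class I list and 18.2% of the interferon gamma list, against 20.5% of all tested genes. Higher calls made up 15.6% of all tested genes. NLRC5, the class I transactivator, rose with 0.48 ± 0.07 (edgeR adjusted p = 0.0004). IRF1, a transcription factor of the interferon response, had -0.16 ± 0.08 (edgeR adjusted p = 0.143). With the length and GC trends removed B2M (-0.14, edgeR adjusted p = 0.112) and TAPBP (0.12, edgeR adjusted p = 0.311) were not called, NLRC5 went to 0.20 and IRF1 was called lower (-0.24, edgeR adjusted p = 0.0456). TAPBP also lost its call without the second IgG library and without each of the 3 antagonist libraries in turn.

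**Figure D4:**
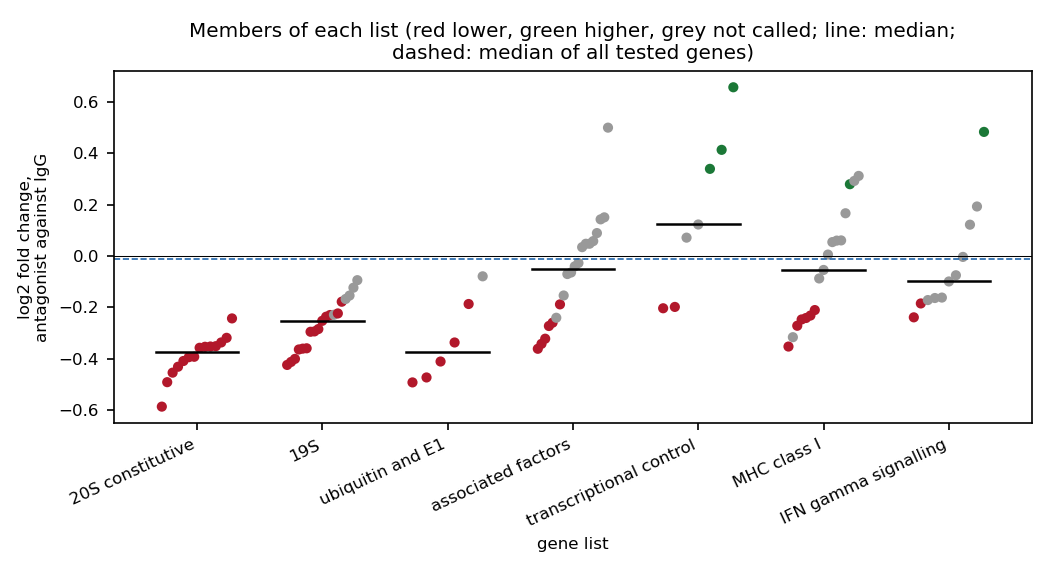
Log2 fold change of antagonist over IgG for each tested gene of the 20S and 19S groups and of the related lists (red lower, green higher, grey not called) with a line at the median of each list and a dashed line at the median of all tested genes. The ubiquitin genes have a median of -0.37, while the proteasome-associated and class I lists both have a median of -0.05.

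The cell identity of the libraries was read from marker genes. In IgG the myeloid markers SPI1, ELANE and CD33 had means of 255, 699 and 65.4 CPM, while CSF1R was low at 2.55 CPM and MPO was at 0.468 CPM. Of 8 myeloid markers, only LYZ was called, and it fell. Over all tested genes 36.1% were called and 20.5% were lower. Of 15 markers of other cell types 5 were at 0 in all 6 libraries, among them CD3G, MS4A1, HBB and EPCAM. Only 4 had enough counts to test, and 1 of these, NKG7, fell (-0.32 ± 0.06, edgeR adjusted p = 0.00138). NKG7 was well expressed, with a mean of 354 CPM in IgG.

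In the agonist comparison PSMD11 and PSMD14, both of the 19S lid, fell. The agonist table is a list in which 99.9% of the 904 genes were called by edgeR, 44.2% lower and 55.6% higher, so a call there says nothing about the proteasome genes in particular. Values are CPM of the listed counts, which summed to 2764479 to 3522203 a library, and the zero point of the fold changes depends on the list. PSMD11, a lid scaffold subunit, had 743, 737 and 800.2 CPM in its IgG group and 591, 597 and 622 CPM with the agonist (-0.33 ± 0.06, edgeR adjusted p = 0.000535). PSMD14 had 709.9, 721 and 734 CPM against 597, 591 and 567 CPM (-0.30 ± 0.06, edgeR adjusted p = 0.00069). Both genes were lower in every agonist library than in any IgG library, as were 44.1% of the listed genes. The first agonist library stood apart from the other 2, with 25.1 and 26.7 in the same chi-square test against 3.75 between its replicates. Without it the log2 fold changes of PSMD11 and PSMD14 were both -0.32. Across scalings and with DESeq2 they ranged from -0.43 to -0.25 for PSMD11 and from -0.40 to -0.22 for PSMD14.

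The same genes under the antagonist gave different calls. PSMD11 had 75.1, 68.3 and 69.2 CPM in IgG and 63.0, 69.6 and 62.6 CPM with the antagonist (-0.12 ± 0.07, edgeR adjusted p = 0.175), with the second antagonist library inside the IgG range, whereas PSMD14 fell with the antagonist as given above. The agonist effect minus the antagonist effect, fitted over the 902 genes in both tables, was -0.21 ± 0.09 for PSMD11 (edgeR adjusted p = 0.0573) and 0.11 ± 0.09 for PSMD14 (edgeR adjusted p = 0.292), where 56.5% of the shared genes were called. For PSMD11 the difference was called with RLE size factors (-0.32, edgeR adjusted p = 0.00695), with library totals (-0.31, edgeR adjusted p = 0.0131) and without the first IgG library of the antagonist set (-0.28, edgeR adjusted p = 0.0117). For PSMD14 it was -0.0033 with RLE size factors. The shared genes all come from the agonist list, of which 99.9% were called for the agonist. That selection enters the difference, its p-values and the share called, so they are a description only. Each set had its own IgG group, and the set and the antibody cannot be told apart in any level compared across the tables.

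**Figure D5:**
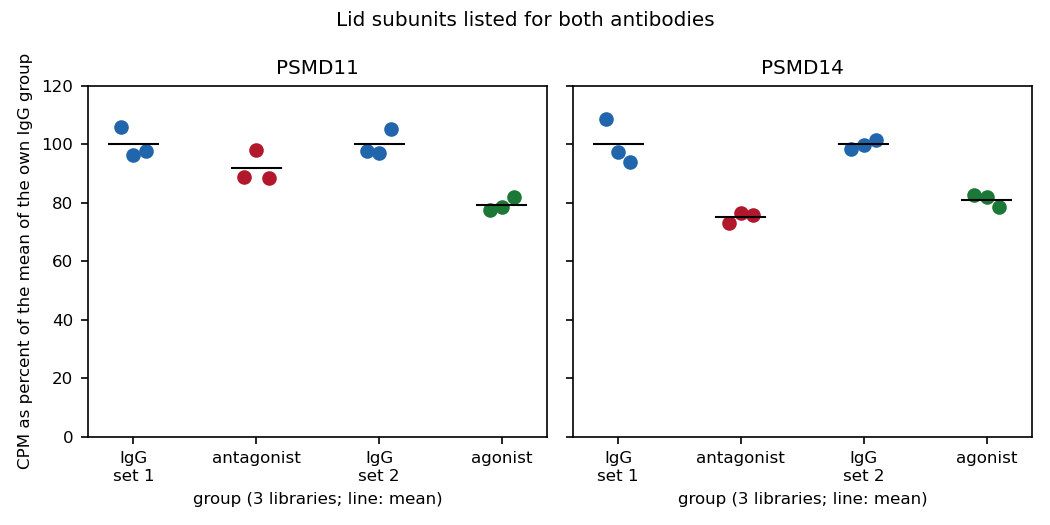
Level of PSMD11 and PSMD14 in each library of both comparisons, as a percent of the mean CPM of the IgG libraries of the same set, with 1 point per library and a line at each group mean. All 3 agonist libraries lie below their IgG libraries for both genes, and 1 antagonist library lies inside the IgG range for PSMD11.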

How the data were processed

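RNA from 12 U937 libraries was sequenced. The values used are raw read counts per gene as deposited by the authors in 2 tables, 1 for each antibody with its own IgG group. The submitters' processing notes name HISAT2, Cufflinks and the hg38 build. Which program counted the reads, on which annotation and whether by strand, is not given in the sources used here. Columns name the group only, so library numbers follow column order and pair nothing. Of the 28395 entries for the antagonist, 570 had no gene symbol and stayed out of scaling, shares and tests.

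Each table was fitted whole with edgeR 4.0.16 in R 4.3.3 (filterByExpr, TMM, robust quasi-likelihood F-test, Benjamini-Hochberg adjustment, threshold 0.05). The agonist table holds 904 genes, of which 903 were called, and was treated as a selected list. The difference between the antibodies was tested as an interaction over the 902 shared genes. Ratios within a library were compared with two-sided exact permutation tests. SE is the absolute log2 fold change over the square root of F. Alternatives were DESeq2 1.42.0, library totals, RLE and upper-quartile scaling, 2 filters and each library left out. A further alternative removed a loess trend on transcript length and GC content. For the interaction, both the scalings and the fits with a library left out were added after seeing the data. The fit was tested on simulated counts. Gene positions and lengths came from GENCODE 29 and promoters from RefSeq GRCh38.p14.

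The members and gene lists were chosen with earlier results of these data known. Values in every library are given for the immunoproteasome and PSME genes, PSMF1 and POMP, and in every other role group for up to 3 genes past the threshold with the largest change and the gene with the smallest. In the other lists up to 4 genes past the threshold and 2 not past it are named; other genes are named for their role and were chosen after their values were seen. Some genes of these lists are not reported here.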

Additional observations from a re-analysis of the deposited data

How the results depend on the processing

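No paired analysis was possible because the columns carry no replicate numbers. Of the 38 proteasome genes that fell with the antagonist, 23 fell in all 13 other settings and 15 lost the call in at least 1; the count of those that fell was 27 to 38, and 31 to 36 with a library left out. All genes called lower went from 2831 to 1597 with library totals and ranged from 1769 to 2601 with a library left out. All genes called higher went from 2147 to 1374 with the length and GC trends removed, and ranged from 1374 to 2474 with a library left out. In the agonist list 601 of 903 calls were made with those trends removed. The antibody difference for PSMD11 was -0.21 and became -0.31 with library totals and -0.32 with RLE, and ranged from -0.28 to -0.16 with a library left out. That for PSMD14 was 0.11, became -0.0033 with RLE, and ranged from 0.02 to 0.15 with a library left out. The log2 differences of the PSMB8 to PSMB5 and PSMB9 to PSMB6 ratios ranged from -0.44 to -0.05 and from -0.47 to -0.16, and that of the PSMB10 to PSMB7 ratio ranged from -0.0448 to 0.0371 with a library left out. PSMC3IP ranged from -0.265 to 0.0245 with a library left out, NFE2L1 became -0.10 with the trends removed, and USP14 became 0.0101 with library totals and 0.0295 with the trends removed. The cause was not tested. Counts of 49 to 126 a library limit PSMB8 and PSMB9.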

Other observations

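Antisense genes that match the naming pattern were left out of the proteasome genes, and PSMD6-AS2 is present in both tables. With the antagonist it had 49, 44 and 49 counts in IgG and 56, 76 and 58 with the antibody (log2 fold change 0.36 ± 0.19, edgeR adjusted p = 0.153). In the agonist list PSMD6-AS2 had 44.1, 38.3 and 41.8 CPM in IgG and 20.2, 25.3 and 19.5 CPM with the antibody (-0.94 ± 0.18, edgeR adjusted p = 0.000653), with all agonist libraries below all IgG libraries. In that list 99.9% of the genes were called and 44.1% lay wholly below IgG. The agonist call and separation of PSMD6-AS2 therefore say nothing about this gene in particular. Exons of PSMD6-AS2 overlap those of PSMD6 on the other strand. PSMG3-AS1 had 83, 95 and 79 counts in IgG and 105, 100 and 100 with the antagonist (0.19 ± 0.15, edgeR adjusted p = 0.334).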
